A study of Mus musculus with 6 samples.

Results

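10 genes of interleukin-6 (IL-6) family signalling were examined: the cytokines Il6, Il11 and Lif, the receptor chains Il6st, Osmr and Lifr, the transcription factor Stat3, and the feedback inhibitors Socs2, Socs3 and Cish. They were taken by gene symbol, and all 10 were among the 16081 genes listed. 7 of the 10 had enough counts to be among the 11552 genes tested, and Il6, Lifr and Socs2 did not. RNA-seq was performed on Lewis cells, a mouse lung carcinoma line whose source label reads mouse lung adenocarcinoma, after 24 hours with DMSO (3 samples) or with SD70, an inhibitor of the histone demethylase KDM4C (3 samples). No genetic change is named for either group, and the cells of both were grown in DMEM with serum and antibiotics. A single line grown without other cells limits the groups as a model of a tumor. The SD70 dose of this experiment is not given in the sources used here. The study's methods say of its experiments in general that they were repeated independently, but neither they nor the labels say that these samples were separate cultures, so p-values measure only the spread between these samples.

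Cytokines of the IL-6 family signal through receptor complexes that share gp130, the chain encoded by Il6st. Binding of the cytokine brings gp130 together with a second signalling chain or a cytokine-specific receptor, the attached JAK kinases phosphorylate STAT3, and STAT3 enters the nucleus and activates target genes. Socs3 is itself such a target, and its protein binds gp130 and JAKs and shuts the signal down, whereas Cish and Socs2 are best known as feedback inhibitors induced by STAT5. In lung carcinoma this pathway is known for growth-promoting and inflammatory roles.

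The 6 libraries held between 15276744 and 17060424 expected counts. The 10 members had whole-number counts in every library. Of the marker genes of other cell types, Ptprc, which defines leukocytes, had 0, 0 and 0 counts under DMSO against 2, 1 and 2 under SD70, and Pecam1, which defines endothelium, had at most 4. Cd3e, which defines T cells, was not listed. The summed level of the 8 listed of 10 immune markers was 16.1 to 16.7 FPKM (fragment counts scaled by transcript length and library size) with DMSO and 11.6 to 13.5 FPKM with SD70, most of it Cd68, which fell (log2 fold change -0.48, adjusted p = 0.000121). Lyz2 of the same list, with 12, 11 and 15 counts under DMSO against 26, 21 and 15 under SD70, had a log2 fold change of 0.79 and did not pass (adjusted p = 0.0257). The summed level of the 6 fibroblast markers was 201 to 206 FPKM with DMSO and 174 to 186 FPKM with SD70, with Col1a1 at no more than 6 counts. Of these fibroblast genes Pdgfrb rose (log2 fold change 1.54), Pdgfra (-0.999), Dcn (-0.19) and Col3a1 (-0.19) fell, and Lum did not pass. The 4 endothelial markers summed to 0.90 to 1.07 FPKM with DMSO and 0.98 to 1.22 FPKM with SD70, with Pecam1 never above 4 counts and Cdh5 (log2 fold change 0.14, adjusted p = 0.503) the only one tested. The epithelial markers Epcam, Cdh1 and Krt19 had at most 1 count per sample, while Vim (-0.47), Krt8 (-0.55) and Krt18 (-1.23 log2 fold change) were abundant enough to test and all 3 fell, so of the carcinoma markers the cells showed keratins 8 and 18 and vimentin. The part of these marker changes in the results that follow was not tested.

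Il6st and Osmr rose with SD70, whereas Stat3, Socs3, Il11 and Cish fell. The change was 2.44-fold up for Osmr, 1.25-fold up for Il6st, and to between 0.427 and 0.779 of the DMSO level for the 4 genes that fell. Lif did not pass the test. "Rose" and "fell" stand here for an adjusted p under 0.01 (edgeR's quasi-likelihood F test, Benjamini-Hochberg adjusted over all 11552 genes). The background was high, since 49.9% of all tested genes passed that threshold, 25.8% of the tested genes higher and 24.2% lower with SD70. 6 of the 7 tested members (85.7%) passed, 2 higher and 4 lower. The 4 lower became 1 without SD70 sample 2, and 2 without DMSO sample 1, without SD70 sample 3 or with DESeq2's Wald test. When the fold also had to reach 2 up or down, as 5.90% of all genes did (3.29% higher, 2.61% lower), 2 of 7 members remained, Osmr higher and Cish lower. Cish met the count filter only through the DMSO samples, where it was higher, and is no support for these counts. The samples of the groups did not overlap for 6 of the 7, against 64.4% of all genes tested. The median log2 fold change of the 7 was -0.36, against -0.0043 over all genes. Each of those 6 separated genes reached p = 0.1 in an exact two-sided permutation test of normalized counts, which is the smallest value that 3 samples against 3 can give. In bulk RNA, fewer cells expressing a gene and less RNA per cell cannot be told apart.

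**Figure D1:**
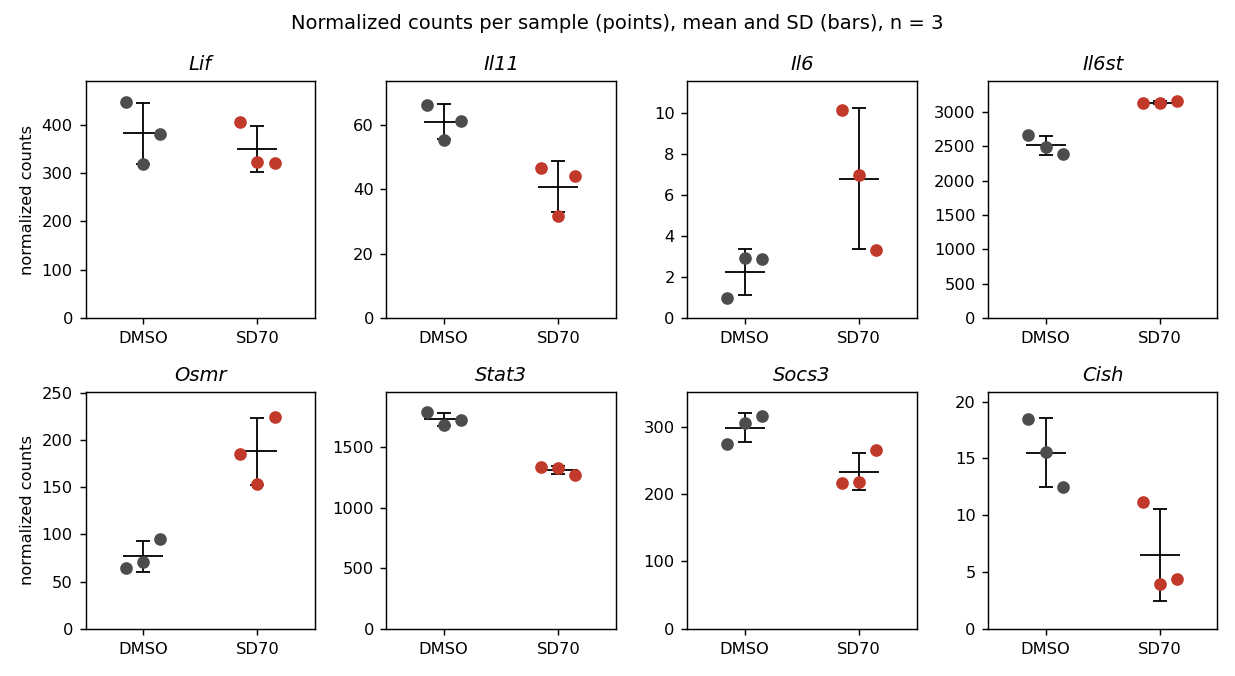
Normalized counts (linear axes from 0) of Il6 and the 7 tested members in each DMSO and SD70 sample (points), with the group mean and SD (bars, n = 3). The groups were apart for Osmr, Il6st, Stat3, Socs3, Il11 and Cish, overlapped for Lif, and for Il6 lay next to each other at very low counts.

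The ligands differed widely in level. Lif encodes leukemia inhibitory factor and lies at chr11:4257568-4272514 (GRCm38.p6, NCBI Gene 16878). Its counts were 458, 329 and 396 in DMSO samples 1 to 3 and 399, 325 and 291 in SD70 samples 1 to 3. The groups overlapped, and DMSO sample 1 held the highest count of all. The normalized means were 382 ± 63.4 (SD, n = 3) with DMSO and 349 ± 48.2 (SD, n = 3) with SD70, a log2 fold change of -0.13 with a 95% confidence interval from -0.37 to 0.12 (adjusted p = 0.362 by edgeR).

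Il11 encodes interleukin-11, a gp130 cytokine of stromal and tumor cells, and lies at chr7:4772373-4782907 (NCBI Gene 16156). It had 68, 57 and 64 counts under DMSO against 46, 32 and 40 under SD70. Every SD70 sample was below every DMSO sample, with SD70 sample 2 the lowest. Its normalized mean fell from 61.0 ± 5.46 to 40.8 ± 7.95 (SD, n = 3 each). Its log2 fold change came to -0.58 (standard error 0.189, 95% confidence interval -0.97 to -0.20, adjusted p = 0.00837 by edgeR). The call was close to the threshold. It was lost when any of DMSO sample 1, DMSO sample 3, SD70 sample 2 or SD70 sample 3 was left out, with a largest adjusted p of 0.0781, and DESeq2's Wald test gave an adjusted p of 0.0381. The sequence around one of the start sites that RefSeq lists for Il11, chr7:4778092-4778391 on the minus strand, is shown because it holds a match to the AP-1 site TGANTCA, in capitals, 98 to 92 bases before the start. It is written from 250 bases before to 50 bases after the start (RefSeq, GRCm38.p6).
Il11 promoter: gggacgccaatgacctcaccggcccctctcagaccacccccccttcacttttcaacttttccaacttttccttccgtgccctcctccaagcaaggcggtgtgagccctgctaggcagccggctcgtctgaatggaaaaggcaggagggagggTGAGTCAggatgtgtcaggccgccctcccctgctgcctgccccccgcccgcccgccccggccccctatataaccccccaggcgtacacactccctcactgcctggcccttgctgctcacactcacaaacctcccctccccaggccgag
In the other start window of Il11 none of the 5 searched motifs was found.

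Il6, at chr5:30013114-30019975 (NCBI Gene 16193), encodes the founding cytokine of the family. It was at 1, 3 and 3 counts under DMSO against 10, 7 and 3 under SD70, too few to be tested. SD70 sample 3 had the same count as DMSO samples 2 and 3, so the raw counts of the groups met at 3. Summed over the samples, the counts were 7 and 20. After scaling by library size, the ratio of SD70 to DMSO was 3.05, with a 95% exact interval of 1.24 to 8.54 that covers counting error only. When every gene with 1 count or more somewhere was admitted, edgeR gave Il6 a log2 fold change of 1.55 with an adjusted p of 0.0473, which did not pass. Levels were 0.06, 0.18 and 0.18 FPKM with DMSO and 0.63, 0.43 and 0.22 FPKM with SD70.

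Among the receptor chains, Il6st was the most abundant gene of the 10. It encodes gp130 and lies at chr13:112464070-112506860 (NCBI Gene 16195). Its counts were 2735, 2559 and 2489 under DMSO against 3079, 3148 and 2866 under SD70, so that each SD70 sample was above each DMSO sample. The normalized mean rose from 2512 ± 141 to 3135 ± 16.0 (SD, n = 3 each). Its log2 fold change came to 0.32 (standard error 0.0511, 95% confidence interval 0.22 to 0.42, adjusted p = 1.96e-06 by edgeR).

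Osmr encodes the oncostatin M receptor chain, which pairs with gp130 to bind oncostatin M, and lies at chr15:6813568-6874968 (NCBI Gene 18414). Its counts were 66, 73 and 99 under DMSO against 183, 155 and 204 under SD70. The lowest SD70 sample was well above the highest DMSO sample. The normalized mean was 76.7 ± 16.1 under DMSO against 188 ± 35.3 under SD70 (SD, n = 3 each). Its log2 fold change came to 1.29 (standard error 0.148, 95% confidence interval 0.98 to 1.59, adjusted p = 1.64e-08 by edgeR). When the null hypothesis was a fold change of up to 2, edgeR's glmTreat gave Osmr an adjusted p of 0.308, so a rise beyond that size did not pass. The start window of Osmr, chr15:6874264-6874563 on the minus strand of GRCm38.p6, is shown for the member with the clearest rise. The capitals mark an AP-1 match TGANTCA at bases 4 to 10, counting the first transcribed base as 1.
Osmr promoter: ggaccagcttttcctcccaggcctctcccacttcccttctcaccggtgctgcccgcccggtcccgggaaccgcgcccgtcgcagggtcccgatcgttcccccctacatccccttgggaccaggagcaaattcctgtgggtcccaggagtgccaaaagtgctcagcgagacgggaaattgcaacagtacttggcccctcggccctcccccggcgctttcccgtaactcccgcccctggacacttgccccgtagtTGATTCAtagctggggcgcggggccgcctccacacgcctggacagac

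Lifr encodes the LIF receptor chain and lies at chr15:7090610-7197489 (NCBI Gene 16880). It had 0 counts in 5 samples and 1 count in SD70 sample 3. A count of 0 allows up to 3 counts, which in these libraries was 0.176 to 0.181 CPM (counts scaled to library size). Lif itself had 291 to 458 counts in the same samples.

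Stat3, the transcription factor downstream of gp130, lies at chr11:100886806-100939594 (NCBI Gene 20848). Its counts were 1834, 1734 and 1795 under DMSO against 1320, 1334 and 1158 under SD70. All SD70 samples were below all DMSO samples, and the spread within each group was small beside the gap. The normalized mean fell from 1731 ± 52.2 to 1313 ± 34.4 (SD, n = 3 each). Its log2 fold change came to -0.40 (standard error 0.0540, 95% confidence interval -0.51 to -0.29, adjusted p = 9.44e-08 by edgeR). In the GENCODE M21 annotation Stat3 shares 72 exonic bases with Stat5a on the opposite strand, and whether the counting used strand is not given in the sources used here. Stat5a was at 79.9 to 121.9 counts per sample, a small number beside Stat3.

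**Figure D2:**
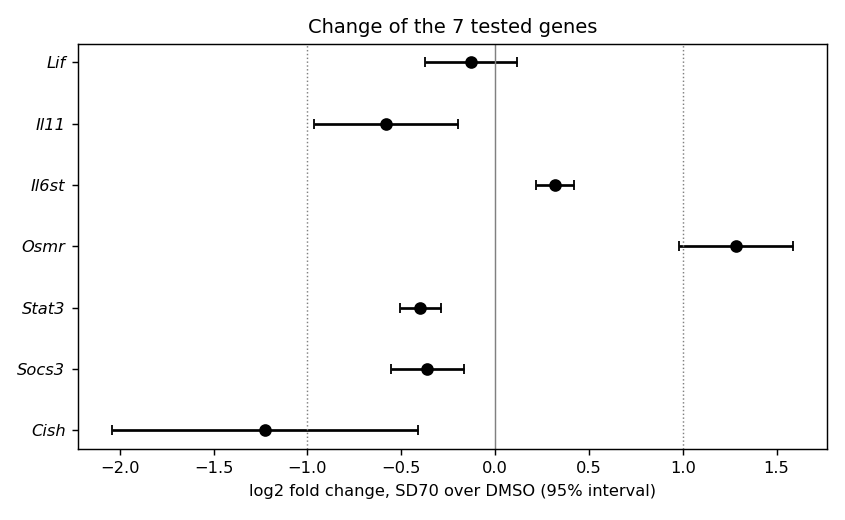
Log2 fold change, SD70 over DMSO, of the 7 tested members, with 95% confidence intervals and dotted lines at -1 and 1. The interval of Lif spans 0, and those of Osmr and Il6st lie above 0 and those of Socs3, Stat3, Il11 and Cish below 0.

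Of the feedback inhibitors, Socs3 was the most abundant. It encodes the inhibitor that binds gp130 and lies at chr11:117966079-117970336 (NCBI Gene 12702). The counts were 282, 315 and 329 under DMSO against 213, 220 and 241 under SD70, with every SD70 sample lower. The normalized mean fell from 299 ± 21.3 to 233 ± 27.6 (SD, n = 3 each). Its log2 fold change came to -0.36 (standard error 0.0952, 95% confidence interval -0.55 to -0.17, adjusted p = 0.00146 by edgeR). The adjusted p rose to 0.0141 without SD70 sample 1 and 0.0151 without SD70 sample 2, above the threshold.

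Cish encodes the cytokine-inducible SH2-containing protein, an inhibitor induced by STAT5, and lies at chr9:107296659-107302784 (NCBI Gene 12700). It had 19, 16 and 13 counts under DMSO against 11, 4 and 4 under SD70. It reached the filter of about 10 counts in 3 samples through the DMSO group alone. The highest SD70 sample was only 2 counts below the lowest DMSO sample. The normalized mean fell from 15.5 ± 3.02 to 6.51 ± 4.03 (SD, n = 3 each). Its log2 fold change came to -1.23 (standard error 0.401, 95% confidence interval -2.04 to -0.41, adjusted p = 0.00864 by edgeR). The call was lost without DMSO sample 1, DMSO sample 2, SD70 sample 2 or SD70 sample 3, with a largest adjusted p of 0.0640, and DESeq2 gave an adjusted p of 0.0474. Cish overlaps, on the opposite strand, the transcribed processed pseudogene Gm17040 (261 shared exonic bases) and the antisense gene Gm17041 (479), neither of which was listed, so reads of the 3 genes cannot be told apart where strand was not used.

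The start windows of these inhibitors are shown because both hold matches to the STAT site TTCNNNGAA, in capitals, which reads the same on both strands. The Socs3 window is chr11:117969317-117969616 on the minus strand and has its match 154 to 146 bases before the start. The Cish window is chr9:107296409-107296708 on the plus strand and has matches at bases 1 to 9 and 12 to 20.
Socs3 promoter: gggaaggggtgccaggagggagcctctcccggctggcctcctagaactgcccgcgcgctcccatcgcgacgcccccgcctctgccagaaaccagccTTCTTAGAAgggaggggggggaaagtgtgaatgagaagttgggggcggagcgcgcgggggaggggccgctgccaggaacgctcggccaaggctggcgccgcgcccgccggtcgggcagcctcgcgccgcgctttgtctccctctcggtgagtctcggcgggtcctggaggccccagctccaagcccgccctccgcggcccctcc
Cish promoter: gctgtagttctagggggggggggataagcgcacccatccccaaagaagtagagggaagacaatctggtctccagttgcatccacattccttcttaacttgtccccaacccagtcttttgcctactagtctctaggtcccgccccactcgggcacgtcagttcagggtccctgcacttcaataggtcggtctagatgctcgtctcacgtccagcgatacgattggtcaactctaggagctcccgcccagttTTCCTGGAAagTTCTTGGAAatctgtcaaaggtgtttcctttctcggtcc
The STAT site was found in the windows of 2 members, and 8.30% of all 32851 RefSeq windows of the same length hold it. The AP-1 site TGANTCA was in windows of Il6, Il11, Lif and Osmr, and 7.81% of all windows hold it. The NF-kB site was found in the Il6 window, 44 to 35 bases before the start, and 4.51% of all windows hold it. TGACGTCA and TGATGNAA were in no member's window, against 1.79% and 3.97% of all windows. The 11 windows of 9 members were searched on both strands, no 2 matches overlapped, and 5 windows had no match. A match describes these letters only.

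Socs2, at chr10:95383903-95417321 (NCBI Gene 216233), is a feedback inhibitor of growth hormone signalling. It had 0, 0 and 2 counts under DMSO against 0, 1 and 1 under SD70, so no fold was given.

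Levels per length gave the order of the genes within each group. With DMSO it ran from Il6st (29.1 ± 1.67 FPKM, SD, n = 3) to Stat3 (24.4 ± 0.717), Socs3 (7.11 ± 0.477), Lif (5.88 ± 0.967), Il11 (2.14 ± 0.202), Osmr (0.993 ± 0.210), Cish (0.337 ± 0.0651), Il6 (0.140 ± 0.0693), Socs2 (0.02) and Lifr, which was listed at 0. The samples of Socs3 and Lif overlapped, as did those of Il6 and Socs2 and those of Socs2 and Lifr. With SD70 the order was Il6st (35.4 ± 0.207 FPKM, SD, n = 3), Stat3 (18.0 ± 0.458), Socs3 (5.44 ± 0.656), Lif (5.32 ± 0.721), Osmr (2.38 ± 0.413), Il11 (1.40 ± 0.293), Il6 (0.427 ± 0.205), Cish (0.133 ± 0.0839), Socs2 (0.0267) and Lifr (0.00333). Osmr and Il11 had changed places, with 0.83 to 1.23 FPKM of Osmr and 1.92 to 2.32 FPKM of Il11 with DMSO, and 2.00 to 2.82 FPKM of Osmr and 1.07 to 1.63 FPKM of Il11 with SD70. Socs3 and Lif overlapped again, as did Socs2 and Lifr, and so did Il6 and Cish.

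**Figure D3:**
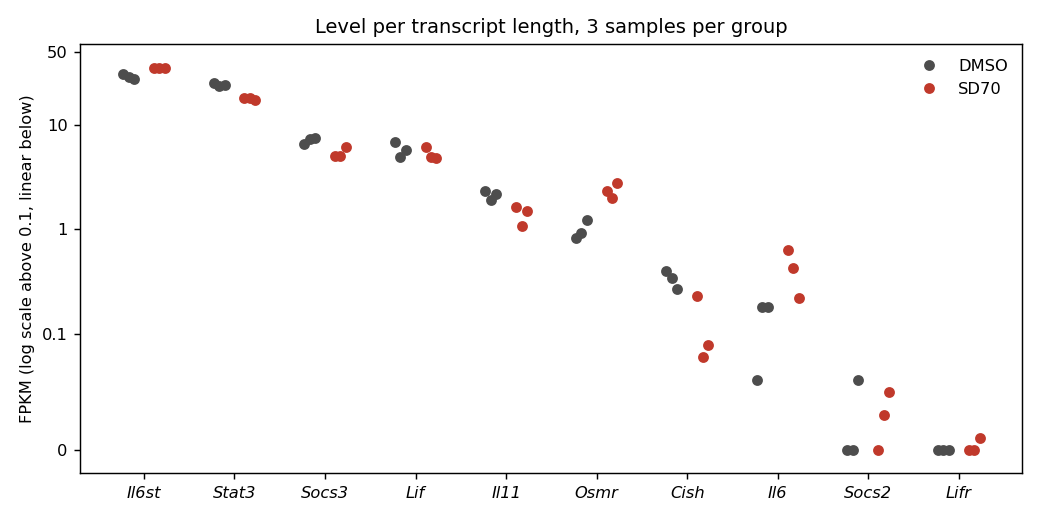
FPKM of the 10 members in each DMSO and SD70 sample (points), on an axis that is logarithmic above 0.1 FPKM and linear below. Il6st and Stat3 stood highest in both groups, and Osmr moved from below Il11 with DMSO to above it with SD70.

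Ratios within a sample showed how the parts of the pathway shifted against each other. The ratio of Il6st to Stat3 (FPKM) was 1.22, 1.21 and 1.14 under DMSO, against 1.92, 1.94 and 2.04 under SD70. The groups were far apart beside their spread (1.19 ± 0.0458 and 1.97 ± 0.0619, SD, n = 3 each, exact permutation p = 0.1, the smallest possible). The ratio of Il6st to Osmr was 37.2, 31.4 and 22.4 under DMSO against 15.2, 17.7 and 12.6 under SD70 (means 30.3 ± 7.45 and 15.2 ± 2.53, SD, n = 3 each, exact permutation p = 0.1). gp130 transcripts thus outnumbered those of the oncostatin M chain in every sample, by a smaller factor with SD70. The ratio of Stat3 to Socs3 overlapped between the groups, at 3.84, 3.26 and 3.24 under DMSO against 3.65, 3.57 and 2.82 under SD70 (means 3.45 ± 0.339 and 3.35 ± 0.456, SD, n = 3 each, exact permutation p = 0.8). The ratio of Lif to Il11 was 2.97, 2.58 and 2.67 under DMSO against 3.77, 4.64 and 3.23 under SD70, with no overlap (exact permutation p = 0.1, n = 3 each). 

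**Figure D4:**
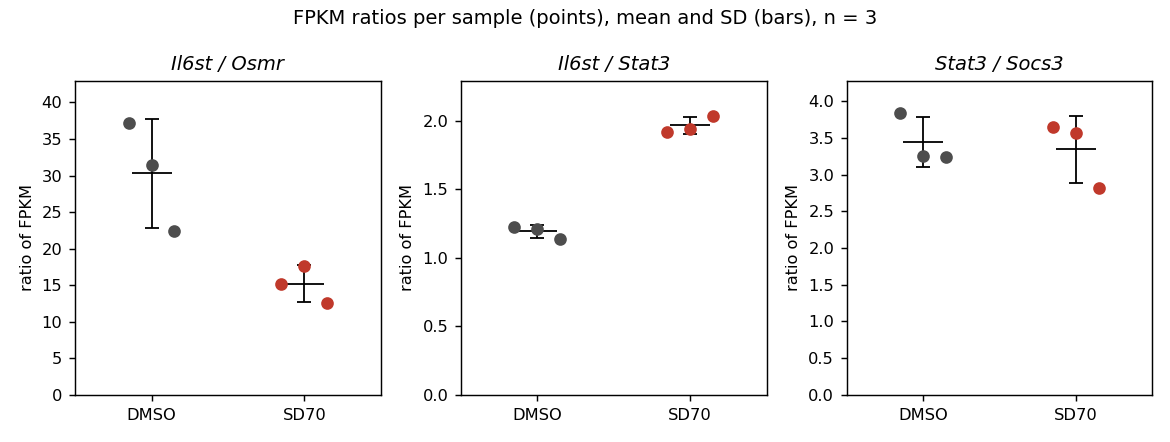
Ratios of FPKM values within each sample for Il6st to Osmr, Il6st to Stat3 and Stat3 to Socs3 (points), with the group mean and SD (bars, n = 3). The DMSO and SD70 samples overlap for Stat3 to Socs3 and are apart for the other ratios shown.

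Within the summed FPKM of Il6, Il11 and Lif, Lif made up 71.9 ± 2.14% under DMSO and 74.6 ± 1.94% under SD70 (SD, n = 3 each), a difference with an exact permutation p of 0.3. Il11 went from 26.3 ± 1.13% to 19.6 ± 3.14% and Il6 from 1.80 ± 1.02% to 5.83 ± 2.19% (SD, n = 3 each), each with no overlap and an exact permutation p of 0.1. The Il6 share rests on 1 to 10 counts per sample. DMSO samples 2 and 3 and SD70 sample 3 each had 3 counts of Il6. Between those samples the lack of overlap comes from scaling and from the summed level, not from the Il6 counts. Over the 9 gp130 ligands that were listed, the summed level was 19.1 ± 0.965 FPKM with DMSO and 18.5 ± 0.800 FPKM with SD70 (SD, n = 3 each, exact permutation p = 0.6). The share of oncostatin M (Osm) in that sum was 2.37 ± 0.187% and 8.63 ± 1.35% (SD, n = 3 each, exact permutation p = 0.1).

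The wider pathway was described by 9 lists holding 80 genes, of which 75 were listed and 58 tested. 17 of them rose, 21 fell and 20 did not pass, with a median log2 fold change of -0.08. That is 38 of 58 genes past a threshold that 49.9% of all genes passed.

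Of the other gp130 ligands, 1 of 5 tested rose and 4 did not pass. The one that rose was Osm, the ligand of the Osmr chain, with 15, 12 and 13 counts under DMSO against 43, 43 and 47 under SD70. The groups were far apart, and on the log2 scale Osm rose by 1.82 (standard error 0.251, adjusted p = 1.31e-07 by edgeR). Clcf1, a ligand of the CNTF receptor, was at 7.22 FPKM with DMSO and 6.31 FPKM with SD70 (log2 fold change -0.16, adjusted p = 0.176), and Ctf1, cardiotrophin, at 2.26 and 2.17 FPKM (-0.04, adjusted p = 0.880). Of the ligand-specific receptor chains, Il6ra (5.48 and 5.07 FPKM, log2 fold change -0.08, adjusted p = 0.448) and Il11ra1 (log2 fold change 0.11, adjusted p = 0.664) were tested and neither passed.

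The list of JAK kinases holds those of cytokine receptors in general, not only those of gp130. Jak1 (log2 fold change -0.31, adjusted p = 1.26e-06) and Jak3 (-0.47, adjusted p = 2.40e-06) fell, and Jak2 (-0.03) and Tyk2 (-0.01) did not pass. Of the other STAT genes, Stat6 (0.22) rose, Stat2 (-0.37) fell, and Stat5b (-0.12) and Stat5a (-0.16) did not pass. Of the other SOCS genes, Socs4 (0.54, adjusted p = 3.20e-07) and Socs6 (0.18) rose, Socs1 (-0.43, adjusted p = 0.00576) and Socs5 (-0.34) fell, and Socs7 (0.02) did not pass. Socs1, an inhibitor of JAK kinases, lost its call when DMSO sample 1, DMSO sample 2 or any of the SD70 samples was left out (largest adjusted p 0.0507), and Socs6 when any sample but SD70 sample 2 was (largest adjusted p 0.0466).

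Of 10 tested genes that brake JAK-STAT signalling, 6 fell and 3 rose. Those that fell were the SUMO ligases and STAT inhibitors Pias1 (-0.51), Pias3 (-0.46) and Pias4 (-0.25), the phosphatase Ptpn1 (-0.39), the adaptor Sh2b3 (-0.32) and the ubiquitin ligase Cbl (-0.30). The phosphatases Ptpn2 (0.50) and Ptpn11 (0.26), the latter of which also carries growth signals, and Pias2 (0.17) rose, and Ptpn6 (-0.49, adjusted p = 0.105) did not pass. The call of Pias2 was lost without DMSO sample 2 or 3 or SD70 sample 1 or 2, and that of Pias4 without DMSO sample 3. Of the 4 genes of receptor shedding, the protease Adam17 (0.24) and Rhbdf2 (0.29) rose, and the protease Adam10 (-0.21) and Rhbdf1 (-0.40) fell.

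Of 18 tested STAT3 target genes 7 rose, 6 fell and 5 did not pass, with a median log2 fold change of 0.07. Icam1, an adhesion molecule, rose from 4, 5 and 6 counts to 65, 70 and 65 (log2 fold change 3.80, standard error 0.279, adjusted p = 6.71e-14). The acute-phase genes Saa3 (2.17), Hp (1.59) and Lcn2 (0.83) rose, as did the transcription factors Junb (1.22) and Cebpb (1.00) and the methyltransferase Nnmt (0.97). Gadd45g (-1.05), Il4ra (-0.54), the kinases Pim3 (-0.35) and Pim1 (-0.28), Birc5 (-0.22) and Ccnd1 (-0.15) fell, while Mcl1 (0.04) did not pass. The summed level of the 20 target genes was 793 to 818 FPKM with DMSO and 1162 to 1275 FPKM with SD70. That sum rests mainly on a few abundant genes, as Lcn2 alone went from 306.6 to 540.2 FPKM and Saa3 from 30.4 to 137.6 FPKM. Icam1 and Hp met the count filter only through the SD70 samples and Gadd45g only through the DMSO samples, the groups where they were higher, so their calls are no support for the count of the list. Gadd45g and Ccnd1 each lost their call when any sample but DMSO sample 1 was left out, Hp without DMSO sample 3 or SD70 sample 3, and Pim1 without DMSO sample 1.

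Of 5 tested receptors that signal through STAT5, the pathway that induces Cish and Socs2, 2 fell and 3 did not pass. Over all genes tested, 49.9% passed. Il2ra of the same list was too low to be tested. Its counts went the other way, with 1, 4 and 2 under DMSO against 21, 10 and 22 under SD70. Of the 2 that fell, the growth hormone receptor Ghr had 362, 322 and 316 counts under DMSO against 177, 139 and 123 under SD70. Every SD70 sample was below every DMSO sample. On the log2 scale Ghr fell by 1.09 (standard error 0.106, adjusted p = 7.15e-11 by edgeR). The erythropoietin receptor Epor fell from 40, 39 and 47 counts to 14, 24 and 21 (log2 fold change -0.99, adjusted p = 0.000627). Without SD70 sample 1 the adjusted p of Epor was 0.0114, above the threshold.

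**Figure D5:**
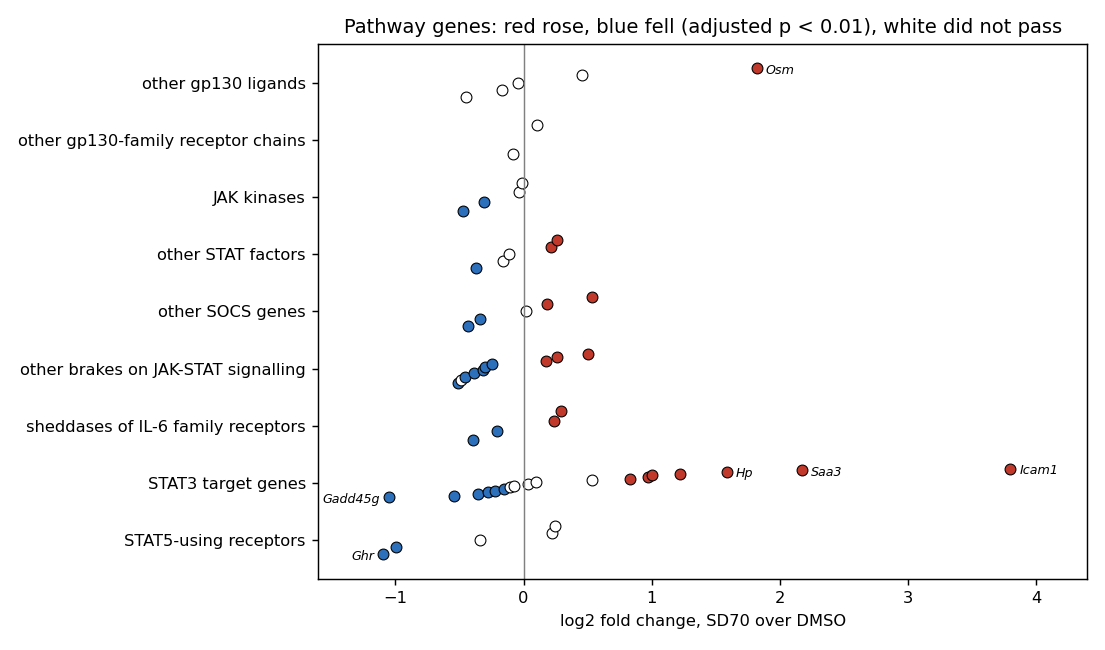
Log2 fold change, SD70 over DMSO, of the tested genes of the 9 pathway lists, in red where a gene rose, blue where it fell and white where it did not pass. Icam1, Saa3, Osm and Hp lie furthest to the right, and Ghr and Gadd45g furthest to the left.

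The genes whose pattern over the 6 samples was closest to that of Osmr and of Cish, the members that passed with a fold of at least 2, were found by the root mean square difference of log2 normalized counts, relative to the DMSO mean, over the 9623 genes that averaged 100 or more normalized counts. For Osmr they were Nfkbie (0.145), an inhibitor of NF-kB, Tmem268 (0.159) and Abraxas1 (0.165), with log2 fold changes of 1.37, 1.28 and 1.23. For Cish they were Fam214b (0.341), Ghr (0.361) and Il13ra1 (0.371), an interleukin-13 receptor chain, with log2 fold changes of -1.21, -1.09 and -1.16. The closest genes to Cish were less close than those to Osmr, and Cish had only 4 to 19 counts per sample.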

How the data were processed

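RNA-seq was measured in 6 samples, grouped by the treatment in the labels. The authors aligned clean BGISEQ-500 reads to GRCm38.p6 with HISAT, and the submitters' processing notes name StringTie 1.3.3b and the older build mm8, so coordinates given here are those of RefSeq for GRCm38.p6. The deposited files hold, per gene, an expected count (not normalized; estimated, so 8.84% to 9.28% of the values in a sample are not whole) and a value read here as FPKM, which the authors normalized by length and depth; that unit was inferred from the values. The counting tool and strandedness are not given in the sources used here. The extraction text of the labels describes tissue, although the samples are a cell line. Samples of a group differed from each other by more than sampling noise (chi-square of 2.12 to 4.97 per gene), and none was merged.

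Counts were rounded, filtered with filterByExpr, scaled by TMM (factors 0.984 to 1.02) and tested with edgeR 4.0.16 (glmQLFit, robust, and glmQLFTest; R 4.3.3). The test was first run on simulated data. Totals of 15276744 to 17060424 counts per sample and 3 samples a group set the precision, with counting error dominant at low counts. The deposited FPKM values were used for levels and ratios. Replicate numbers are shared by the groups. Same-numbered samples deviated together from their group means (correlations of 0.157 to 0.254 over 9623 genes), so they were treated as paired in an alternative fit. Different numbers gave -0.186 to 0.0113. Centering on group means makes these negative on average whenever the same-numbered ones are positive, so they are no separate evidence of pairing.

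The members, gene lists and motifs were chosen with earlier results of these data known. Named were the 10 members, pathway genes past the test with at most 3 others of a list by level, markers by list, and for each member that passed with a fold of at least 2 (Osmr, Cish) the 3 genes most like it. Stat5a, Socs7, Ptpn6, Lum and Il2ra, and the call losses given for single genes, were picked after their values were seen. Alternatives were DESeq2 1.42.0 (size factors and Wald test), looser and stricter count filters, the replicate block, leaving out each sample, limma 3.58.1 on log2(FPKM + 1) and log2(FPKM + 0.1), an adjusted p under 0.05 and glmTreat. Some genes of the lists are counted in the totals but not reported here by name.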

Additional observations from a re-analysis of the deposited data

How the results depend on the processing

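Il6st, Osmr and Stat3 kept their direction and an adjusted p under 0.01 in all 13 alternatives, Socs3 in 11 of 13, Il11 in 8 of 13, Cish in 6 of the 12 in which it could be tested, and Lif passed in 0 of 13. DESeq2's Wald test gave Il11 a log2 fold change of -0.58 (adjusted p = 0.0381) and Cish -1.25 (adjusted p = 0.0474), and then counted 2 members lower. limma on log2(FPKM + 1) gave Cish -0.24 (adjusted p = 0.0176). Members past the test with a log2 fold change of at least 1 numbered 0 higher under limma on log2(FPKM + 1) and under glmTreat, and 0 lower under those, under the 10-count filter (Cish not tested), DESeq2's Wald test and limma on log2(FPKM + 0.1); glmTreat gave 1 member (Osmr) an unadjusted p under 0.05. With the replicate block, which pairs samples by number, the log2 fold change of Osmr was 1.29 and that of Cish -1.25, and no member's call changed.

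Leaving out 1 sample at a time gave log2 fold changes of -1.86 to -0.96 for Cish, -0.69 to -0.42 for Il11, -0.47 to -0.31 for Socs3, -0.25 to -0.0013 for Lif, 1.14 to 1.46 for Osmr, 0.28 to 0.36 for Il6st and -0.43 to -0.38 for Stat3. The members passing were 2 higher in each case and 1 to 3 lower, those also at a log2 fold change of at least 1 were 1 higher in each case and 0 to 1 lower, and the pathway genes passing were 15 to 17 higher and 17 to 19 lower. Of the 38 pathway genes that passed, 28 passed in each alternative in which they were tested and none changed direction there; Icam1, Hp and Gadd45g were not tested under the 10-count filter. Of those that did not pass, Ctf1 was at -0.32 to 0.10, Jak2 at -0.072 to 0.0013 and Tyk2 at -0.069 to 0.061, so their directions were not stable. The low counts of Cish, Il6, Lifr and Socs2 limit what can be said of them.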

Other observations

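The interleukin-2 receptor alpha chain Il2ra, a receptor gene that uses STAT5 and was not tested because of its low counts, had 1, 4 and 2 counts under DMSO against 21, 10 and 22 under SD70. The groups did not overlap. When every gene with 1 count or more somewhere was admitted, edgeR gave a log2 fold change of 2.95 with an adjusted p of 7.10e-08. The gene was picked after its values were seen.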
